A study of Populus tremula x Populus tremuloides with 22 samples.

Results

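The comparison described here is that of hybrid aspen stems overexpressing the Arabidopsis gene LBD11 (LBD11-OE) with wild type (WT) stems. The 14 libraries were chosen by their titles, 9 of LBD11-OE from lines 1, 2 and 14 with 3 libraries each and 5 of WT, out of 22 libraries in all. The other 8 libraries overexpress LBD4 (LBD4-OE) and entered the fits for the shared estimate of the spread. The tissue of every library was the stem internode at an age of 3 weeks, from trees of Populus tremula x Populus tremuloides kept in a greenhouse. The title of the series places the overexpression in the xylem, and the promoter used is not given in the sources. The labels describe the controls as WT and mention no vector. Line LBD11-OE-14 is so numbered in its titles, while its genotype label gives LBD11-OE-3, and the title was followed. The labels do not state whether the libraries of a line are different trees. The p-values therefore reflect the spread between these samples alone, and that spread may be technical. The Arabidopsis transgene is not among the counted poplar gene models, so its level in each line was not analysed here.

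LATERAL ORGAN BOUNDARIES DOMAIN (LBD) proteins form a plant-specific family of transcription factors, named for a gene expressed where organs meet the meristem. In Arabidopsis, LBD11 is known as a regulator of the vascular cambium, the cell layer whose divisions give rise to wood (xylem) on the inside and phloem on the outside. Xylem cells first expand within a thin primary wall and then deposit a thick secondary wall of cellulose, xylan and lignin.

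Each library held 27264836 to 41969957 counts (median 32107952), and 27855 to 28374 of the 34699 gene models had at least 1 count. In a principal component analysis of the 14 libraries, component 1 carried 39.9% of the variance and placed WT at -69.7 to -47.8 and LBD11-OE at 7.32 to 45.8. Component 2, with 12.4%, set WT replicate 3 (-70.2) apart from the other libraries. In addition, 9 genes divided the 22 libraries of the series into a set of 7 and a set of 15, which the labels do not give. Their summed level was 26 to 104 CPM (counts scaled to library size) in the smaller set and 479 to 2990 CPM in the larger. The smaller set held WT replicate 3, the 3 LBD11-OE-2 libraries and the 3 libraries of LBD4-OE-11, so 4 of the 14 libraries compared here belonged to it. LBD11-OE-2 lay wholly in the smaller set and the other LBD11-OE lines wholly in the larger. A difference between LBD11-OE-2 and the other lines therefore cannot be told apart from a difference between the sets.

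LBD11-OE stems differed from WT in about as many genes upward as downward, and most differences were small. Of 25626 genes tested, 4115 were higher (16.1%) and 4166 lower (16.3%) in LBD11-OE by edgeR's quasi-likelihood test at a Benjamini-Hochberg adjusted p under 0.05. The median log2 fold change was 0.46 among the higher genes and -0.40 among the lower ones, and 0.00 over all genes tested. At least 2-fold changes were seen in 795 higher and 526 lower genes, at least 4-fold in 281 and 143, and at least 8-fold in 122 and 55. When the change was tested against a fold of 1.5 instead of 0 change (edgeR's glmTreat), 538 genes were higher by more than that (2.1%) and 341 lower (1.33%). In 1421 of the 4115 higher genes (34.5%) all 9 LBD11-OE libraries lay above all 5 WT libraries, and in 1437 of the 4166 lower genes (34.5%) all lay below. These genes were picked by the same contrast, and the share over all genes tested was not counted, so this is a description. Within the smaller library set, where LBD11-OE-2 meets a single WT library assumed to vary like the other groups, 1747 genes were higher and 1971 lower. With counts summed per line, so that the 3 lines were the unit, 2618 were higher and 2504 lower.

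The changed genes made up a sizeable part of the transcripts. Genes called higher took 20% of the counts on average in WT (18.2% to 20.9% over libraries), 26% in LBD11-OE-1, 25.8% in LBD11-OE-2 and 27.7% in LBD11-OE-14. Genes called lower took 20% in WT (18.8% to 22.7%), 14.5% in LBD11-OE-1, 15% in LBD11-OE-2 and 13.7% in LBD11-OE-14. These genes were chosen by the same contrast, so the shares describe how much RNA was involved and are no further test. The tested genes were split into 4 equal bins by mean level. In the bin with the highest levels, from 38.9 CPM upward, 22.5% were called higher and 18.6% lower, against 12.1% and 10.1% in the lowest bin, below 3.85 CPM. Changes of at least 2-fold had the opposite distribution, with 458 higher and 327 lower in the lowest bin and 72 and 49 in the highest. On the gene models, the stretch from the first to the last base had a median of 4016 bases for higher genes, 3090.5 for lower genes and 3539.5 over all genes tested. The number of reads rises with the level, and its part in the shares called was not tested.

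The 3 lines were each compared with the same 5 WT libraries in a fit of 26271 genes with a mean for each line. Their numbers of calls differed. With all libraries LBD11-OE-14 had the most calls, with 3678 genes higher (14%) and 3332 lower (12.7%). LBD11-OE-1 had 2838 higher (10.8%) and 2808 lower (10.7%), and LBD11-OE-2 had 2268 higher (8.63%) and 2027 lower (7.72%), all by edgeR's quasi-likelihood test. Past the threshold upward in each of the 3 lines taken alone were 1394 genes (5.31%), and downward 1257 (4.78%). As the lines share their WT libraries, this agreement is a count and not independent evidence from 3 experiments. Without LBD11-OE-1 replicate 1 that line had 3222 calls in both directions together, and LBD11-OE-2 had 2172 without its replicate 1 and 2042 without its replicate 2. Without LBD11-OE-14 replicate 2 that line had 4964 calls and LBD11-OE-1 had 5390. Without its replicate 3 these were 4965 and 5355. Without replicate 1, 2 or 3 of LBD11-OE-1, that line had 3222, 3865 and 4083 calls, against 4329, 4080 and 4142 in LBD11-OE-2. The order of the lines thus turned in these fits. A line that lacks a library is tested with fewer samples than the others, so these fits do not rank the lines. Without WT replicate 3 every line kept its 3 libraries. LBD11-OE-1 then had 4872 calls (5646 with all libraries), LBD11-OE-2 had 4633 (4295) and LBD11-OE-14 had 6926 (7010). Lines 1 and 2 thus came closer to each other when that WT library was left out. Omitting replicate 1 or replicate 2 of LBD11-OE-2 left 674 and 695 genes lower in each line, and 923 were higher in each line without its replicate 1.

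**Figure D1:**
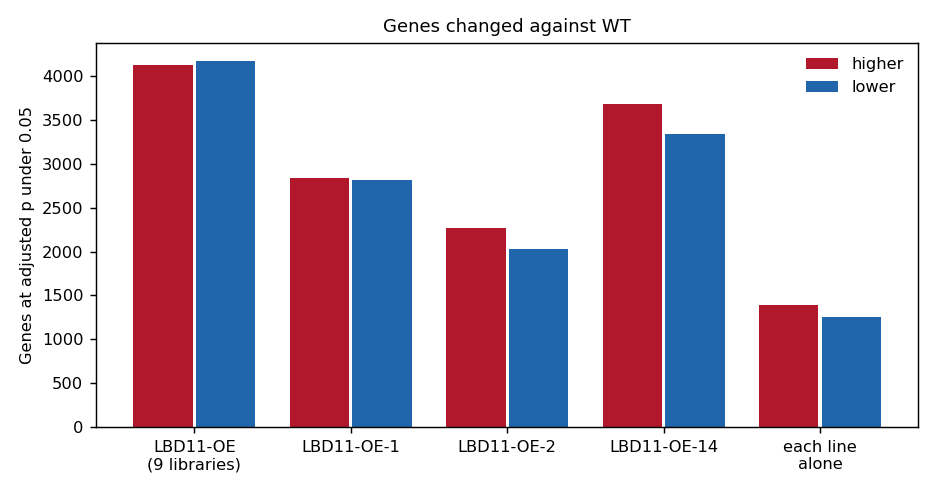
Number of genes at an adjusted p under 0.05 (vertical axis) higher (red) or lower (blue) than in WT, for the 9 LBD11-OE libraries together, for each line, and in each of the 3 lines taken alone. With all libraries LBD11-OE-14 had the most calls of the lines, 3678 higher and 3332 lower, and LBD11-OE-2 the fewest.

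Of the 4115 genes higher in LBD11-OE as a whole, 1384 passed in 3 lines, 1193 in 2, 1161 in 1 and 377 in no line alone. Of the 4166 lower genes these numbers were 1254, 1127, 1222 and 563. The largest of the 3 line effects was that of LBD11-OE-14 in 2150 of the higher and 2139 of the lower genes, that of LBD11-OE-1 in 1273 and 1338, and that of LBD11-OE-2 in 692 and 689. The median log2 fold change of the higher genes was 0.43 in LBD11-OE-1, 0.41 in LBD11-OE-2 and 0.50 in LBD11-OE-14, and that of the lower genes was -0.41, -0.37 and -0.46. Of the 795 genes higher by at least 2-fold, 536 reached 2-fold in each line, and of the 526 lower, 355 did. There were 13 genes called higher in one line and lower in another.

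Genes were ranked by effect and by agreement of lines among those that averaged 5 CPM or more in WT or LBD11-OE and had the same sign in every line, which 3281 higher and 3547 lower genes met. Agreement was measured by the smallest of the 3 line effects among genes past the threshold in each line, 1124 higher and 1141 lower. The 8 genes first by effect rose by a log2 fold change of 5.96 to 8.72, from 0.0113 to 0.526 CPM in WT to 6.32 to 73.8 CPM in LBD11-OE, and in all 8 the groups did not overlap. As these genes were picked for large rises from low WT levels, their lack of overlap is no further test. The 8 first falls by effect ran from -6.24 to -3.67 and the groups overlapped in all but 1 of them. By agreement, the 6 first rises had a smallest line effect of 5.61 to 8.08, and all 6 were among the 8 first by effect. The 6 first falls by agreement had a smallest line effect of 2.66 to 5.56 in size, did not overlap with WT in 5 genes, and shared only 2 genes with the 8 first by effect. The genes at the top of both rankings were thus mostly the same for rises and mostly different for falls. The most even rises among genes of at least 2-fold in each line spanned 0.04 to 0.06 on the log2 scale between lines, at pooled log2 fold changes of 1.06 to 1.25, and the most even falls spanned 0.03 to 0.05, at -1.48 to -1.24. The most abundant rises of at least 1.5-fold went from 777 to 1430 CPM in WT to 1770 to 2340 CPM, and the most abundant falls from 879 to 1800 CPM to 398 to 959 CPM. Since the files hold identifiers without names, the products of these genes are not given.

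Potri.011G126000 (chromosome 11, 15701321 to 15701888, minus strand) was first both by effect and by agreement. It had 2 counts in WT replicate 1, or 0.0565 CPM, and 0 in the other WT libraries. LBD11-OE-1 had 4.16, 3.44 and 5.12 CPM, LBD11-OE-2 had 3.97, 7.17 and 4.14 CPM, and LBD11-OE-14 had 9.54, 6.93 and 14.7 CPM. The groups did not overlap, and WT was at or near the floor throughout. The 1846 counts of LBD11-OE against 2 of WT gave a ratio of 554 (exact 95% interval 153 to 4570, counting error only), with an edgeR adjusted p of 6.689e-09. Its line effects were 8.08 ± 0.61, 8.35 ± 0.60 and 9.37 ± 0.58 (log2 fold change ± SE), and the joint test among lines gave an adjusted p of 0.1424 in edgeR. LBD4-OE libraries had 0 to 0.191 CPM, and differed from LBD11-OE (edgeR adjusted p = 4.556e-10) but not detectably from WT (edgeR adjusted p = 0.4221).

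Potri.005G131000 (chromosome 5, 10088490 to 10088975, minus strand) had 0, 0.544, 0.214, 0.0288 and 0.205 CPM in WT. LBD11-OE-1 had 15.6, 21.5 and 27.7 CPM, LBD11-OE-2 had 19.6, 37.5 and 22.3 CPM, and LBD11-OE-14 had 39.3, 45.3 and 59 CPM. Every LBD11-OE library stood far above every WT library, and every library of line 14 above every library of lines 1 and 2. The pooled log2 fold change was 7.23 ± 0.66 (SE, edgeR adjusted p = 1.981e-07), while the joint test among lines missed the threshold (edgeR adjusted p = 0.4675). LBD4-OE libraries were at 0.0262 to 1.08 CPM, with an edgeR adjusted p of 3.105e-08 for the difference from LBD11-OE and 0.4643 for that from WT. Both rising genes are short models, and which reads count toward them depends on how the authors treated near-identical copies, which the sources do not state.

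Among the falls, Potri.011G161500 (chromosome 11, 18660987 to 18663004, plus strand) stood first, and its value rested on 4 of the 5 WT libraries. WT had 10.7, 25.4, 0, 13 and 27.3 CPM, with the 0 in replicate 3. LBD11-OE libraries had 0.0318 to 0.683 CPM, with a median of 0.159. LBD4-OE libraries had 0.0264 to 29.8 CPM, overlapping with both groups, with an edgeR adjusted p of 0.002289 against LBD11-OE and 0.6576 against WT. WT replicate 3 lay below every LBD11-OE library, so WT and LBD11-OE overlapped. The pooled log2 fold change was -6.24 ± 1.19 (SE, edgeR adjusted p = 0.0005677), limma voom gave an adjusted p of 0.2554, and voom with line as a random block gave 0.3692. Within the smaller set, where that library is the sole WT, the fitted value was 5.62 with an edgeR adjusted p of 0.8002.

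Potri.003G212900 (chromosome 3, 20997687 to 21000818, plus strand), next by agreement, was lower in every LBD11-OE library. WT had 13.9, 23.9, 41.1, 17.9 and 21.6 CPM. LBD11-OE-1 had 0.73, 0.796 and 5.79 CPM, LBD11-OE-2 had 0.523, 0.575 and 0.425 CPM, and LBD11-OE-14 had 0.621, 0.0968 and 1.3 CPM. The highest LBD11-OE library, replicate 3 of line 1, was still below the lowest WT library. On the log2 scale the change was -4.30 ± 0.57 (SE), at an edgeR adjusted p of 1.354e-05. LBD4-OE libraries, at 4.18 to 23.7 CPM, overlapped with both groups, and differed from LBD11-OE with an edgeR adjusted p of 0.0001343 and from WT with one of 0.3125.

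**Figure D2:**
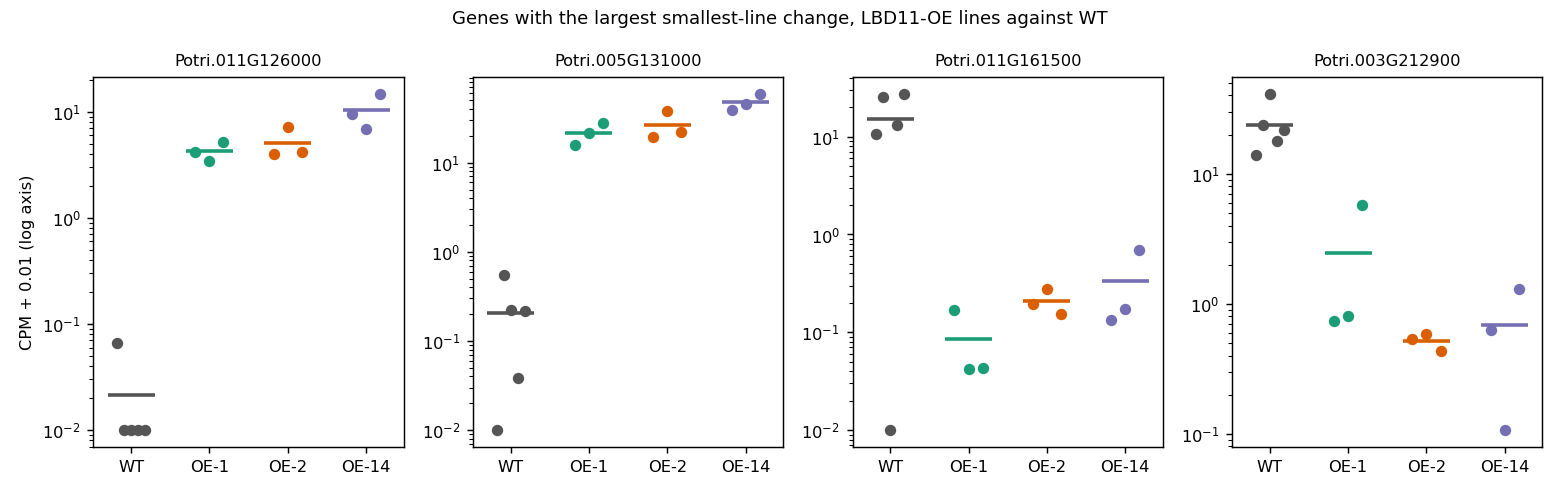
CPM of the 2 rising and the 2 falling genes with the largest smallest-line effect, 1 panel a gene, each with its own logarithmic axis and a small constant added. Points are libraries and bars group means (5 WT libraries, 3 of each line). The groups are apart in 3 panels, and in the panel of Potri.011G161500 a WT library lies at 0.

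Genes near silence in one group and expressed in the other were counted by level. A WT mean under 0.1 CPM met a mean of 1 CPM or more in every LBD11-OE line in 9 genes, and the reverse held in 1 gene. A gene that low in WT passes the expression filter only through its counts in other libraries. The number of genes near silence in WT was not counted, so neither count can be given as a share. These are descriptions by level, and a gene with so few WT counts has no well determined fold.

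Differences among the lines were tested directly, and 357 genes (1.36%) passed the joint test of the 3 lines in edgeR. LBD11-OE-14 had the highest fitted level of the 3 lines in 280 of them and LBD11-OE-1 the lowest in 226. Pair by pair, LBD11-OE-14 was above LBD11-OE-1 in 357 genes and below in 88, above LBD11-OE-2 in 127 and below in 47, and LBD11-OE-2 was above LBD11-OE-1 in 0 genes and below in 2 by edgeR. For this last pair DESeq2 called 3 above and 23 below, and at an unadjusted p under 0.05 edgeR had 1062 above and 1081 below. Of the joint genes 187 were also called higher in LBD11-OE against WT, 46 lower, and 124 were not called in that comparison. In 181 of the 187 higher genes the effect was largest in LBD11-OE-14, with medians of 0.52 in LBD11-OE-1, 0.69 in LBD11-OE-2 and 1.21 in LBD11-OE-14. In 39 of the 46 lower genes it was also largest there, with medians of -0.81, -0.93 and -1.77. Where the lines differed and the pooled comparison was past the threshold, line 14 was thus in most cases furthest from WT. It lay in the direction of the pooled change, but the pooled comparison includes line 14, so that direction is no further result. The 124 genes not called there are outside this statement. The joint count was 119 without LBD11-OE-14 replicate 2, 220 without its replicate 3, 559 without WT replicate 3, which enters through the spread alone, and 667 in DESeq2.

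The genes that by rank stood highest in line 14 relative to the other lines, Potri.008G224102 and Potri.014G186524, are 2 of the 9 that divide the library sets. Potri.008G224102 (chromosome 8, 18968950 to 18969199, plus strand) had 0.0523 to 0.135 CPM in LBD11-OE-2 and 0 in WT replicate 3, against 2.48 to 7.58 CPM in the other 10 libraries. Potri.014G186524 (chromosome 14, 15473612 to 15473861, minus strand) had 0.135 to 0.47 CPM in LBD11-OE-2 and 0.249 in WT replicate 3, against 9.56 to 33.8 CPM. Neither separated line 14 from line 1, with edgeR adjusted p-values of 0.6749 and 0.7685. The next genes outside that set, chosen after their values were seen, are described instead.

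Potri.005G059900 (chromosome 5, 3782342 to 3787963, minus strand) had 0 in WT replicates 1, 3 and 4, 0.118 CPM in replicate 2 and 0.0684 in replicate 5. LBD11-OE-1 had 2.22, 3.34 and 4.38 CPM, LBD11-OE-2 had 5.3, 6.36 and 2.3 CPM, and LBD11-OE-14 had 16.6, 15.8 and 15.7 CPM. The libraries of line 14 were the highest and nearly equal, and those of lines 1 and 2 overlapped each other but not WT. LBD11-OE-14 was above LBD11-OE-1 by 2.27 ± 0.37 and above LBD11-OE-2 by 1.78 ± 0.36 (log2, SE), and both differences passed in edgeR (adjusted p = 0.001936 and 0.02574), while lines 1 and 2 differed by 0.49 ± 0.36 with an edgeR adjusted p of 0.6892. Its 2269 counts in LBD11-OE against 7 in WT gave a ratio of 194 (exact 95% interval 94.2 to 484), an interval that covers counting error only and not the spread between lines.

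Potri.016G101100 (chromosome 16, 10194549 to 10197776, minus strand) had 0.0565, 0.379, 0.178, 0.115 and 0.205 CPM in WT. LBD11-OE-1 had 0.54, 1.65 and 1.67 CPM, LBD11-OE-2 had 3.76, 2.6 and 0.743 CPM, and LBD11-OE-14 had 7.83, 10.9 and 8.26 CPM. All LBD11-OE libraries were above WT, and line 14 again stood above the other lines without overlap. The joint test gave an adjusted p of 0.004346 in edgeR, and 0.05022 without LBD11-OE-14 replicate 2.

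Lowest in line 14 relative to the other lines was Potri.015G087500 (chromosome 15, 11117901 to 11120046, plus strand). WT had 71, 64.4, 98.3, 65.1 and 61.1 CPM, LBD11-OE-1 had 6.99, 14.6 and 17.3 CPM, LBD11-OE-2 had 6.87, 7.17 and 18.5 CPM, and LBD11-OE-14 had 1.52, 1.1 and 1.98 CPM. The levels fell in 2 steps, with all LBD11-OE libraries far below WT and those of line 14 below the rest. Line effects were -2.48 ± 0.35, -2.74 ± 0.36 and -5.55 ± 0.45 (log2 fold change ± SE, edgeR adjusted p of the joint test = 0.003645). The level in LBD4-OE was 43.4 to 92 CPM, with an edgeR adjusted p of 0.8675 against WT.

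Potri.004G049000 (chromosome 4, 3947541 to 3949415, minus strand) had a like order of levels. WT had 24.4, 21.6, 36.5, 20.8 and 24.6 CPM, LBD11-OE-1 had 4.32, 7.48 and 8.5 CPM, LBD11-OE-2 had 4.68, 1.66 and 8.53 CPM, and LBD11-OE-14 had 1.3, 1.52 and 0.878 CPM. Line 14 was lowest, but a library of LBD11-OE-2 came close to it. The joint test gave an edgeR adjusted p of 0.02398, which rose to between 0.05938 and 0.1485 when replicate 2 or 3 of LBD11-OE-1 or any library of LBD11-OE-14 was left out. In a fit of the 14 compared libraries alone it was 0.08345 in edgeR.

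**Figure D3:**
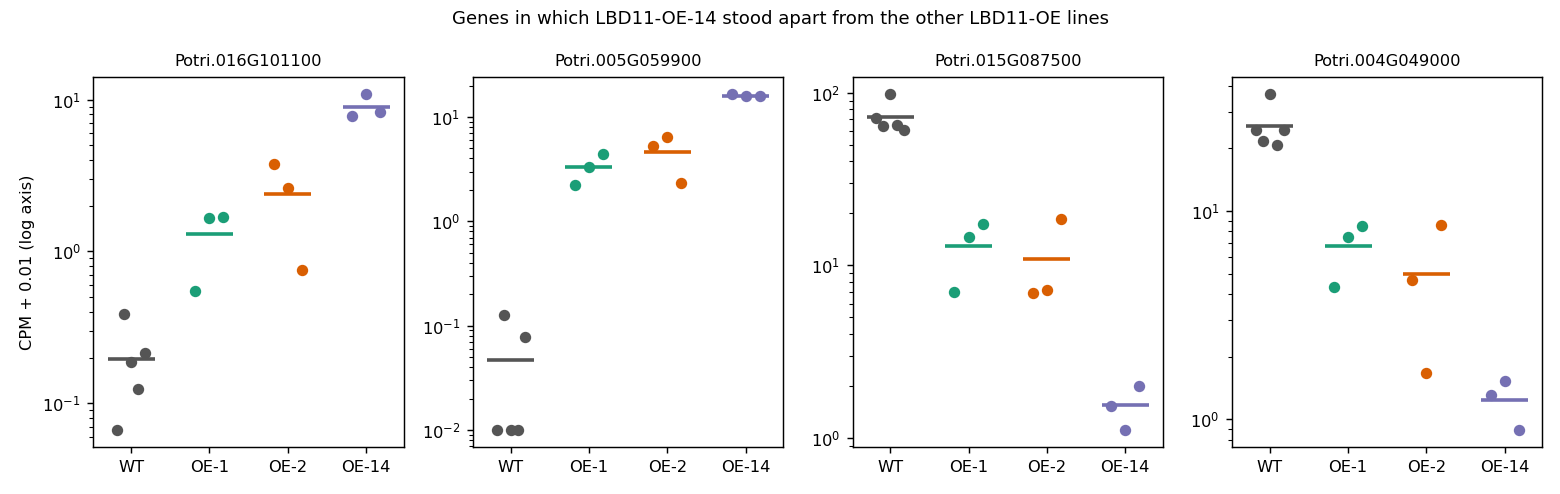
CPM of 2 genes in which LBD11-OE-14 was highest and 2 in which it was lowest, 1 panel a gene, each with its own logarithmic axis and a small constant added. Points are libraries and bars group means (5 WT libraries, 3 of each line). In every panel lines 1 and 2 lie between WT and line 14.

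Genes of the cell wall were described by lists written by identifier, whose membership cannot be checked here and whose members are therefore not named. Stems are a mixture of cell types, and in these bulk samples a larger share of a cell type and more RNA per cell cannot be told apart. All 8 listed primary wall cellulose synthases, subunits of the complexes that make the cellulose of expanding cells, rose in LBD11-OE. Their log2 fold changes were 0.20 to 0.64 with a median of 0.43, beside a median of 0.00 and 16.1% called higher over all genes tested. Summed over the list, WT had 919, 1170, 821, 1070 and 1070 CPM, LBD11-OE-1 had 1350, 1350 and 1310 CPM, LBD11-OE-2 had 1290, 1220 and 1180 CPM, and LBD11-OE-14 had 1380, 1300 and 1310 CPM. The lowest LBD11-OE library was just above the highest WT library. LBD4-OE libraries had 1100 to 1300 CPM, overlapping with both groups. All 8 passed in LBD11-OE-1 and in LBD11-OE-14, 4 passed in LBD11-OE-2, beside 10.8%, 14% and 8.63% of all genes, and 0 passed the joint test among lines in edgeR, in DESeq2 or at an unadjusted p under 0.05. With lines as the unit 5 of the 8 passed.

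Secondary wall cellulose synthases, which act while wood cells thicken their walls, followed another order of lines. Of the 5 listed, 3 rose in LBD11-OE, with a median log2 fold change of 0.35, beside 16.1% of all genes called higher. By line, 2 rose in LBD11-OE-1, 2 in LBD11-OE-2 and 4 in LBD11-OE-14, beside 10.8%, 8.63% and 14% of all genes, and the medians were 0.23, 0.12 and 0.71. Their summed level was 4190, 4830, 3560, 4670 and 4540 CPM in WT, 4940, 4700 and 4590 in LBD11-OE-1, 5100, 5200 and 4620 in LBD11-OE-2, and 6600, 7090 and 6750 in LBD11-OE-14. Line 14 stood above all other libraries, and lines 1 and 2 overlapped with WT. The joint test among lines was passed by 2 members, one at 0.24, 0.39 and 0.82 (edgeR adjusted p = 0.004454) and one at 0.23, 0.32 and 0.89 (edgeR adjusted p = 0.0001844) in lines 1, 2 and 14. Without WT replicate 3, the library with the lowest sum, 2 of the 5 rose, with a median of 0.22.

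Enzymes of lignin monomer biosynthesis, which build the phenolic units of lignin, rose in 9 of 22 cases, with a median log2 fold change of 0.14, a range from -0.21 to 0.76, and 16.1% called higher over all genes tested. In LBD11-OE-1, 5 rose and 1 fell, in LBD11-OE-2, 6 rose, and in LBD11-OE-14, 12 rose, where 10.8%, 8.63% and 14% of all genes were called higher. The share of all genes called lower in LBD11-OE-1 was 10.7%. The summed level was 17300 ± 1570 CPM in WT (SD, n = 5), 18700 ± 1470 in LBD11-OE-1, 19900 ± 592 in LBD11-OE-2 and 23000 ± 1350 in LBD11-OE-14 (SD, n = 3 each). Only in line 14 did all libraries exceed the highest WT library, 19900 CPM, and of lines 1 and 2 some libraries lay within the WT range. The joint test was passed by 4 members. The widest spread was that of an enzyme at 0.36, 0.59 and 1.08 in lines 1, 2 and 14 (edgeR adjusted p = 0.003595). Another was at -0.45, -0.10 and 0.20, where only the fall in line 1 passed its own test (edgeR adjusted p = 0.001059), with an edgeR adjusted p of 0.00191 for the joint test. Within the smaller library set 0 of the 22 passed in edgeR, 1 rose and 4 fell in DESeq2, and at an unadjusted p under 0.05 edgeR likewise had 1 higher and 4 lower.

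Of the 5 listed xylan synthases, which build the main hemicellulose of wood, 2 rose in LBD11-OE as a whole (16.1% of all genes), with a median of 0.21. In LBD11-OE-1, 2 rose, in LBD11-OE-2, 1, and in LBD11-OE-14, 4, beside 10.8%, 8.63% and 14% of all genes. One of the pooled calls was lost, leaving 1, without any single WT library and without any single LBD11-OE-14 library, and within the smaller library set 0 passed in edgeR, in DESeq2 or at an unadjusted p under 0.05. The summed level was 1020 ± 60.2 CPM in WT (SD, n = 5), 1170 ± 64.4 in LBD11-OE-1, 1240 ± 48.2 in LBD11-OE-2 and 1520 ± 123 in LBD11-OE-14 (SD, n = 3 each). The sums of every LBD11-OE library, from 1110 CPM upward, exceeded those of WT, up to 1090 CPM. LBD4-OE libraries had 910 to 1250 CPM, overlapping with both groups. Sucrose synthases and KORRIGAN, which supply the substrate of cellulose synthesis and edit nascent cellulose, rose in 2 of 4 cases (16.1% of all genes), with a median of 0.33. Of these calls 1 was lost without line LBD11-OE-14, and with lines as the unit 0 passed in edgeR, against 2 in DESeq2 and 2 at an unadjusted p under 0.05. In the pooled comparison 0 members of these 5 lists were called lower by edgeR, by DESeq2 or at an unadjusted p under 0.05. Over all genes tested edgeR called 16.3% lower.

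Secondary wall transcription factors, the NAC and MYB regulators that switch on wall genes, did not move one way. Of 11 tested, 2 rose and 3 fell in LBD11-OE, with a median of -0.17, beside 16.1% higher and 16.3% lower over all genes. Within the smaller library set 0 fell in edgeR and in DESeq2, and 3 were lower at an unadjusted p under 0.05. The rises were from low levels, at 1.14 ± 0.16 from 4.06 CPM and 1.65 ± 0.43 from 0.128 CPM in WT (log2 fold change ± SE). One of the falls was -0.37 ± 0.07 from 37.5 CPM, with every LBD11-OE library below every WT library. Over the 12 members tested by line the median was -0.16 in LBD11-OE-1, -0.16 in LBD11-OE-2 and 0.19 in LBD11-OE-14. Only 1 rise remained without replicate 2 or 3 of LBD11-OE-1, replicate 1 or 2 of LBD11-OE-2, or replicate 3 of LBD11-OE-14. A member at -0.55, -0.24 and 0.17 in lines 1, 2 and 14 passed the joint test (edgeR adjusted p = 0.006859).

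Cambium and vascular patterning regulators, of which 11 of 12 listed are in the files, were split, with 3 higher and 4 lower, beside 16.1% and 16.3% of all genes, and log2 fold changes from -0.36 to 0.45. With lines as the unit 0 rose and 1 fell in edgeR, 0 rose and 4 fell in DESeq2, and at an unadjusted p under 0.05 edgeR had 1 higher and 4 lower. Without line LBD11-OE-14, 1 rose and 2 fell, and within the smaller library set 4 rose and 0 fell in edgeR, with 1 fall in DESeq2 and 2 lower at an unadjusted p under 0.05. The falls were seen in members with WT levels of 69.5 to 533 CPM. Without WT replicate 3 the list had 5 falls and 0 rises in edgeR, 1 rise in DESeq2, and 3 higher members at an unadjusted p under 0.05. Without WT replicate 5 or LBD11-OE-1 replicate 1 it had 1 rise. In LBD11-OE-14, 4 of the 11 fell and 0 rose in edgeR, beside 12.7% and 14% of all genes. For that line DESeq2 had 1 rise, and edgeR had 2 higher members at an unadjusted p under 0.05. Of the 3 clock genes, which can report the time of sampling, 2 fell in LBD11-OE, beside 16.3% of all genes. Their changes were -0.46 ± 0.09 and -0.72 ± 0.10 (log2 fold change ± SE), with every LBD11-OE library below WT. By line, edgeR had 2 falls and 0 rises in LBD11-OE-1, 1 and 0 in LBD11-OE-2, and 2 and 1 in LBD11-OE-14. Over all genes 10.7%, 7.72% and 12.7% were lower and 10.8%, 8.63% and 14% higher. DESeq2 differed only in LBD11-OE-2, with 2 falls and 1 rise. The remaining member was at 0.27 ± 0.10 with an edgeR adjusted p of 0.03542 and lost its call without any of WT replicates 1, 3 and 5, LBD11-OE-2 replicate 2 and LBD11-OE-14 replicates 2 and 3. The hour at which stems were taken is not in the labels, and its part in the other results was not tested.

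Over the 8 lists together, 9 of 70 tested genes passed the joint test among lines, beside 1.36% of all genes. In all 9 the fitted level was highest in LBD11-OE-14 and lowest in LBD11-OE-1. Over all 357 genes past that test, LBD11-OE-14 was highest in 280 and LBD11-OE-1 lowest in 226, so this order was also the usual one outside the lists. The lists were chosen with results of these data known, so this is a description.

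**Figure D4:**
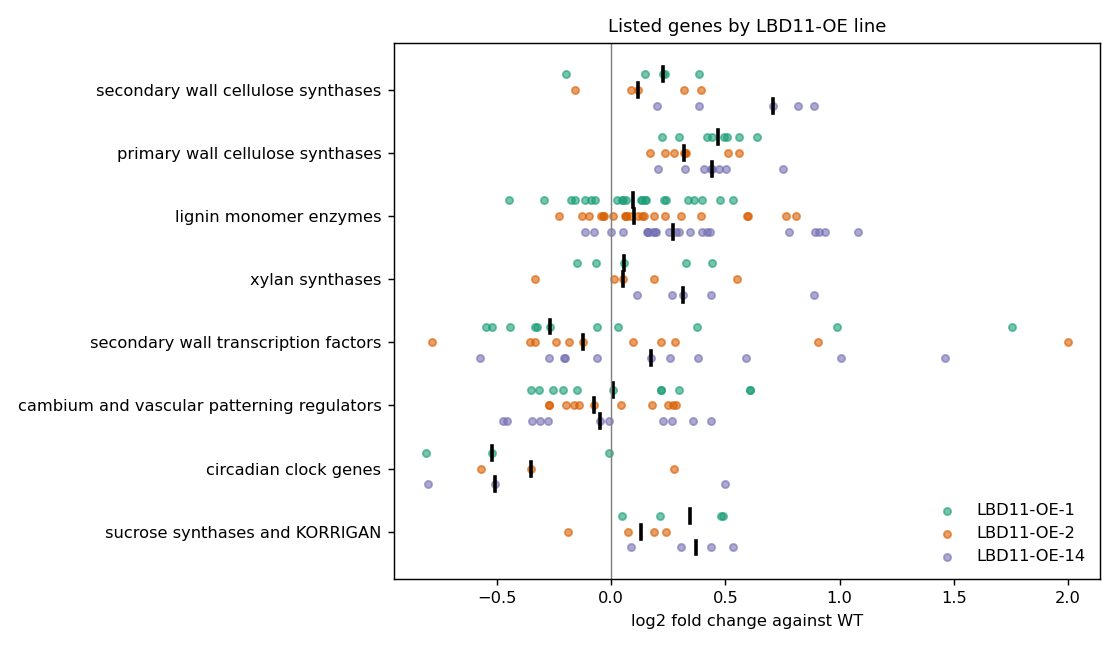
Log2 fold change against WT (horizontal axis) of each listed gene tested in the pooled comparison, by list and by LBD11-OE line (points), with the median of each line as a black bar. The medians of the secondary wall cellulose synthases, lignin enzymes and xylan synthases lie further right in LBD11-OE-14 than in the other lines, and the points of the primary wall cellulose synthases lie at like values in all 3.

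Along the chromosomes, changed genes were spread widely. The share called higher ran from 13.6% on chromosome 12 to 18.7% on chromosome 11, and the share called lower from 13.9% on chromosome 17 to 17.9% on chromosome 9. On unplaced scaffolds 20.9% of 129 genes were higher and 8.53% lower. Runs of at least 4 neighbouring tested genes called in one direction numbered 30 upward and 37 downward. Neighbours can overlap or be near-identical copies, so the genes of a run are not independent.

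The longest run lay on chromosome 13 and held 27 genes between 15538061 and 15623380, followed after a gap by 14 genes between 15625985 and 15657495. Their median log2 fold changes were 2.55 and 2.47. Summed over the 27 genes, WT had 215, 112, 132, 172 and 118 CPM, LBD11-OE-1 had 606, 506 and 284 CPM, LBD11-OE-2 had 847, 526 and 354 CPM, and LBD11-OE-14 had 425, 475 and 568 CPM. All LBD11-OE libraries were above WT, and libraries of a line differed among themselves as much as the lines did. LBD4-OE was at 146 to 704 CPM, overlapping with both. Runs on chromosome 7 (11 genes, 6906001 to 7031694, median 1.48) and chromosome 11 (8 genes, 14383465 to 14433251, median 2.01) had LBD4-OE values over a like range, at 13.5 to 75.2 and 16.9 to 80 CPM.

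On chromosome 19 a run of 8 genes (14377479 to 14440014) had a median log2 fold change of 2.64 and tight groups. Its summed level was 32.5, 32.4, 28.2, 31.1 and 29.2 CPM in WT, 59, 59.4 and 70 in LBD11-OE-1, 52.3, 58.6 and 55.4 in LBD11-OE-2, and 84.4, 65.6 and 76.1 in LBD11-OE-14. The groups were far apart, and LBD4-OE stayed near WT at 28.8 to 36.4 CPM. A second run on that chromosome, of 7 genes between 14680745 and 14775714, was called lower with a median of -3.63. WT was at 345, 600, 46.1, 344 and 612 CPM, with replicate 3 lowest, and LBD11-OE at 21 to 68.9 CPM. WT replicate 3 thus lay within the LBD11-OE range, and 1 of the 7 genes passed in each line alone. LBD4-OE was at 24.8 to 755 CPM, overlapping with both groups. A run of 10 lower genes on chromosome 14 (14299522 to 14914076, median -0.98) had 107, 205, 64.6, 114 and 206 CPM in WT and 40 to 108 CPM in LBD11-OE. LBD4-OE was at 76.2 to 254 CPM there, again overlapping with both. In edgeR 0 genes of that run passed in each line alone, against 2 in DESeq2 and 4 at an unadjusted p under 0.05.

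**Figure D5:**
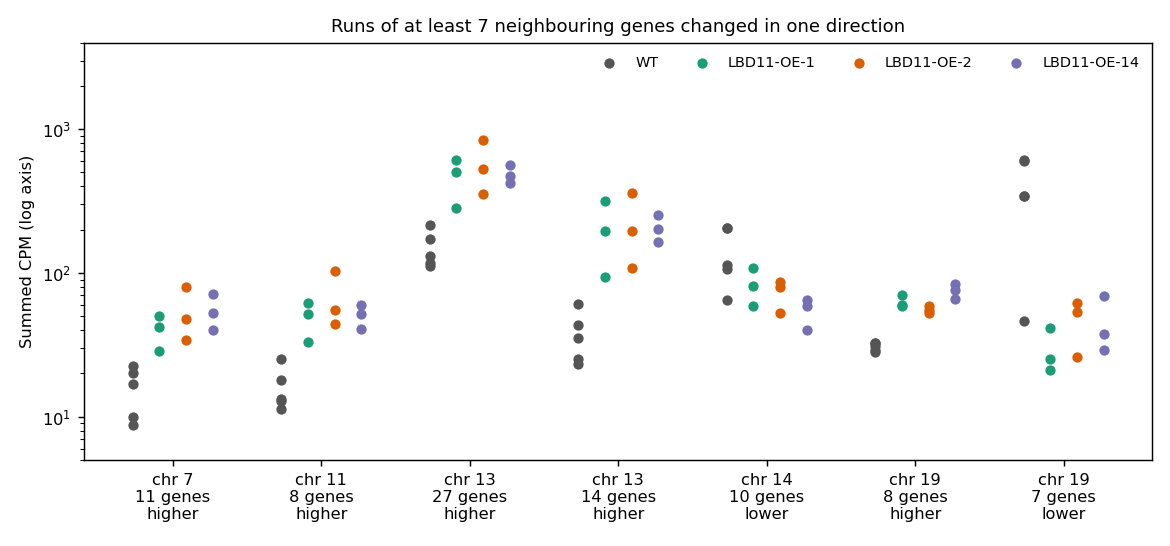
Summed CPM (logarithmic axis) over the genes of each run of at least 7 neighbouring genes called in one direction, with 1 point a library (5 WT, 3 of each LBD11-OE line). The 8-gene run on chromosome 19 has the tightest groups, and in both lower runs WT libraries lie among the LBD11-OE libraries, 1 on chromosome 19 and 2 on chromosome 14.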

How the data were processed

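Per the labels' protocols, RNA was taken with a column kit and a DNase step, enriched for poly(A) and sequenced as paired reads (Illumina HiSeq). Tools listed in the submitters' processing notes are HISAT2, HTSeq, Cufflinks, Trimmomatic and MultiQC. Versions, genome build and strand setting are not given in the sources used here, so genes overlapping on opposite strands cannot be told apart. The authors deposited 1 file of raw read counts per gene and library, unnormalized, from HTSeq per the labels, on Potri identifiers, the scheme of black cottonwood, so alleles of the hybrid that map poorly can be undercounted. Coordinates are as in the files.

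The deposited counts entered edgeR 4.0.16 under R 4.3.3 (TMM scaling, default expression filter with a minimum count of 10 and minimum total of 15, robust quasi-likelihood F test, adjusted p under 0.05). All 22 libraries entered, with 3 construct means for the pooled comparison and 7 means for lines. CPM uses TMM-scaled library sizes. The scripts were checked on simulated data. Alternatives used limma 3.58.1 and DESeq2 1.42.0, other scalings and filters, omission of libraries or lines, library sets and a replicate block. DESeq2 and unadjusted counts beside counts of 0 were added after seeing the data. The counts of all 19 replicate pairs differed beyond sampling noise (chi-square per degree of freedom at least 5.91).

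Members, lists and rules were chosen with earlier results of these data known, and lists came from general knowledge of the poplar literature. With no table of names, the rule prints the first 2 rises and 2 falls by agreement of lines, and the 2 highest and 2 lowest in line 14 relative to the other lines. Lists that needed product names, markers of phloem, cortex and epidermis among them, were not used.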

Additional observations from a re-analysis of the deposited data

Results flagged for a closer look

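In 36 sets of values of 1 group (printed genes and list sums, in WT and in LBD11-OE), 6 held a library far from the others of its group. The rule's rate of about 1 in 20 holds for independent sets of normally spread values. These sets share libraries, those of LBD11-OE mix lines, and some values lie at the floor, so that rate does not measure chance here. In WT replicate 1, Potri.011G126000 had 0.0565 CPM while the other WT libraries had 0. In LBD11-OE-14 replicate 3, Potri.011G161500 had 0.683 CPM, above the other LBD11-OE libraries. In LBD11-OE-1 replicate 3, Potri.003G212900 had 5.79 CPM, also above the rest of LBD11-OE. WT replicate 3 had the highest WT level of Potri.015G087500 (98.3 CPM) and of Potri.004G049000 (36.5 CPM) and the lowest WT sum of sucrose synthases and KORRIGAN (5130 CPM).

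The effect against WT differed among the 3 LBD11-OE lines in 6 printed genes by edgeR's joint quasi-likelihood test. These genes were picked for standing highest or lowest in line 14 relative to the other lines, so their passing is no further test. The genes printed for the pooled comparison did not pass, with joint edgeR adjusted p-values of 0.1424 to 0.9437. The adjusted p was 0.003841 for Potri.008G224102 and 0.004094 for Potri.014G186524, where LBD11-OE-2 was low together with WT replicate 3. In edgeR it was 0.004346 for Potri.016G101100 and 0.002202 for Potri.005G059900, where LBD11-OE-14 was highest. For Potri.015G087500 the edgeR adjusted p was 0.003645 and for Potri.004G049000 it was 0.02398, and there LBD11-OE-14 was lowest.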

How the results depend on the processing

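The pooled comparison kept its direction and its count within 1.5 times under other scalings and filters, limma voom, DESeq2, omission of any single library (3462 to 4166 higher, 3597 to 4220 lower) or line, and the library set as a term. It gave 1747 higher and 1971 lower within the smaller set, and 2618 and 2504 with lines as the unit. The 879 genes past a fold of 1.5 became 557 with the replicate block, 572 without line LBD11-OE-14, 360 within the smaller set, 2734 against a fold of 1.2 and 320 against a fold of 2, and ran from 711 to 951 with single libraries left out. At an adjusted p under 0.01 in each line, 721 genes were higher and 539 lower in each. Leaving out single libraries gave 3222 to 5671 changed genes in LBD11-OE-1, 2042 to 4633 in LBD11-OE-2, 4964 to 7027 in LBD11-OE-14, 923 to 1430 higher and 674 to 1278 lower in each line, and 119 to 559 that differ among lines. DESeq2 gave 667 of the last. Within the smaller set Potri.011G161500 reversed to 5.617 (edgeR adjusted p = 0.8002), where its sole WT library has 0 counts. The cause of the other moves was not tested.

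Replicate numbers gave no clear pairing of the libraries, as deviations of same-numbered libraries correlated at -0.0947 to 0.109. Of the LBD11-OE libraries, 4 of 9 correlated best with their own number, among them all 3 of LBD11-OE-1. WT replicates 4 and 5 have numbers that no other group has, so with a block for replicate number they add nothing to the difference. With the replicate block 3128 genes were higher and 3242 lower. The rises among listed lignin enzymes went from 9 to 5 and among clock genes from 1 to 0. Among xylan synthases, secondary wall transcription factors, and sucrose synthases and KORRIGAN the rises each went from 2 to 1. The falls among cambium regulators went from 4 to 2, and the joint test of Potri.004G049000 to an edgeR adjusted p of 0.07312. The joint test among lines could not be fitted within a library set, which holds at most 2 of the lines. For genes with few WT counts the depth leaves the fold poorly determined.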
